A study of Mus musculus with 2 samples.

Results

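The alpha and beta tubulin isotypes described here are 10 genes, Tuba1a, Tuba1b, Tuba1c and Tuba4a of the alpha family and Tubb2a, Tubb2b, Tubb3, Tubb4a, Tubb4b and Tubb5 of the beta family. They were chosen by gene symbol from the 43346 annotated genes of the tables, and all 10 were found. The choice was made with earlier results of these data known. Total RNA of neural tube was sequenced from B6NCrl mouse embryos at 15.5 days, with no treatment or mutation named in the labels. The neural tube gives rise to brain and spinal cord. Replicate 1 came from a pool of 78 embryos and replicate 2 from a pool of 62, males and females mixed, and the pools are labelled as biological replicates. No condition could be compared, no test was possible, and each mean and SD below is over these 2 pools. The expected counts of all annotated genes came to 34678043 for replicate 1 and to 41355355 for replicate 2.

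Alpha and beta tubulin pair into a dimer, and dimers assemble end to end into microtubules, the tracks and struts of dividing cells, axons and cilia. Mammals carry several genes for each partner. The proteins are nearly alike in their folded body and differ most in a short acidic tail at the end of the chain, where enzymes add or remove glutamate, glycine and the final tyrosine. Growing neurons make large amounts of tubulin to extend axons, and in humans mutations of TUBA1A, TUBB2B and TUBB3 disturb brain folding, migration or axon guidance.

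The coding ends of Tuba4a and the 6 beta members, which set these tails, are shown because the tails are where the proteins differ most. Each line gives the last 60 coding bases of the most abundant transcript with a complete coding region, from GENCODE release M21 on GRCm38, 5′ to 3′ along the gene, with the last codon before the stop in capitals.
Tuba4a, minus strand, chr1:75215625-75215684: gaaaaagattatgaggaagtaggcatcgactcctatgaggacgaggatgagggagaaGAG
Tubb2a, minus strand, chr13:34074471-34074530: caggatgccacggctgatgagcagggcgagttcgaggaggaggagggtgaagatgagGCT
Tubb2b, minus strand, chr13:34127474-34127533: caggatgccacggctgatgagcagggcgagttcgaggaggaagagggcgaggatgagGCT
Tubb3, plus strand, chr8:123421620-123421679: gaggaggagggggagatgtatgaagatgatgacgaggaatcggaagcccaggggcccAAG
Tubb4a, minus strand, chr17:57080693-57080752: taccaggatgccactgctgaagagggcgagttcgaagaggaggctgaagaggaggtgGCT
Tubb4b, minus strand, chr2:25222311-25222370: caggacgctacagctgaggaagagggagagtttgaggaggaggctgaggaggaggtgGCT
Tubb5, minus strand, chr17:35834985-35835044: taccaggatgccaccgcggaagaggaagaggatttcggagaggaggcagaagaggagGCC

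Each of these stretches lies within 1 coding exon. Of the alpha genes, 3 of 4 end in a tyrosine codon, and Tuba4a ends in GAG, a glutamate codon. Glutamate codons (GAA or GAG) make up 8 of the last 20 codons in Tuba4a and 8 to 10 in the beta genes. The Tubb2a and Tubb2b ends differ at 3 of 60 bases (G42A, T48C and A51G, Tubb2a first, counted from the 5′ end of the printed stretch). The Tubb3 end shares 40 to 43.3% of its bases, position by position without gaps, with those of the other beta genes. No gap was allowed for the longer Tubb3 coding region, of 450 codons against 444 or 445 in the other beta genes. By the same measure the Tubb3 end shares 40% with that of Tuba4a, an alpha gene.

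At the other end of the coding region, the first codons are the site where Ttc5, a factor of tubulin mRNA decay, reads the growing chain on the ribosome when free tubulin is in excess. The first 12 coding bases were atgCGTGAGTGC in Tuba1a, Tuba1b and Tuba1c and atgCGCGAGTGC in Tuba4a, with the start codon in small letters. They were atgCGCGAGATC in Tubb2a, atgCGAGAGATC in Tubb2b, atgCGGGAAATC in Tubb4a, atgAGGGAAATC in Tubb5 and atgAGGGAGATC in Tubb3 and Tubb4b. The fourth codon was thus TGC in all 4 alpha genes and ATC in all 6 beta genes.

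Tuba1a was the most abundant protein-coding message of the tissue and alone outweighed the other 9 members together, while Tuba4a ranked 2615 and 4387 and Tuba1c 4207 and 9205 among protein-coding genes in replicates 1 and 2. All 10 reached 1 TPM in both libraries, against a background of 63.4% of 21474 protein-coding genes and 35.8% of all 43346 annotated genes. The 10 are a chosen part of the family. Of the alpha and beta genes left out, Tuba8 and Tubb6 also reached it, while Tuba3a, Tuba3b, Tubal3 and Tubb1 did not. TPM is a level per transcript length, scaled to a fixed total in each library. The summed level of the 10 was 16807 TPM in replicate 1 and 20244 TPM in replicate 2, which is 1.68% and 2.02% of all TPM. Alpha members held 65.9 ± 0.601% of that sum (n = 2) and beta members 34.1 ± 0.601%, and the alpha sum was 1.94 ± 0.0518 times the beta sum. The excess of alpha over beta rests on Tuba1a, since without it the beta sum was 4.35 and 5.69 times the remaining alpha sum in replicates 1 and 2.

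**Figure D1:**
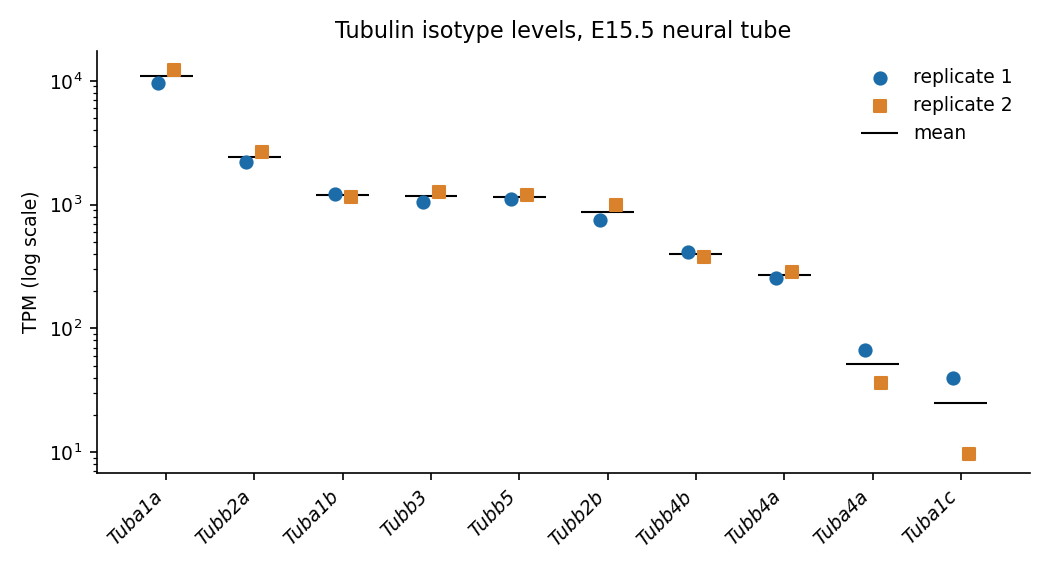
TPM on a log axis for each of the 10 isotypes, ordered by mean, with replicate 1 as circles, replicate 2 as squares and a bar at the mean. Tuba1a lies near 10958 TPM, Tuba1b, Tubb3 and Tubb5 share a level near 1188 to 1153 TPM, and the points of Tuba4a and Tuba1c are the farthest apart.

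Tuba1a (ENSMUSG00000072235.5, chromosome 15, 98949837 to 98953703, minus strand), the chief alpha tubulin of young neurons, stood at 9679 TPM in replicate 1 and 12237 TPM in replicate 2. It was the first of all protein-coding genes in each library. Its share of the summed tubulin level was 57.6% and 60.4% (mean 59.0 ± 2.02%), and its share of the alpha level 87.9% and 91.1%. The level of Tuba1a exceeded that of the 6 beta members together by 1.67-fold in replicate 1 and 1.80-fold in replicate 2.

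Tuba1b (ENSMUSG00000023004.8, chromosome 15, 98931425 to 98934565), an alpha isotype of most cell types, stood at 1225 TPM in replicate 1 and 1151 TPM in replicate 2, or 11.1% and 8.57% of the alpha level. The Tuba1a level was 7.90 times the Tuba1b level in replicate 1 and 10.6 times in replicate 2. Tuba1b was somewhat higher in replicate 1, the opposite of Tuba1a, although neither moved by 1.5-fold. Both coding regions end in a tyrosine codon.

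Tuba4a and Tuba1c together made up less than 1% of the alpha level in each library. Tuba4a (ENSMUSG00000026202.9, chromosome 1, 75214228 to 75219865), the alpha isotype without the tyrosine codon, stood at 66.6 TPM in replicate 1 and 36.6 TPM in replicate 2, or 0.605% and 0.272% of the alpha level. Tuba1c (ENSMUSG00000043091.8, chromosome 15, 99029891 to 99038110), a close copy of Tuba1b, stood at 40.0 TPM in replicate 1 and 9.77 TPM in replicate 2. Genes whose coding region ends in a tyrosine codon therefore held 99.4% of the alpha level in replicate 1 and 99.7% in replicate 2.

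The beta level was spread over more genes, and Tubb2a led it. Tubb2a (ENSMUSG00000058672.6, chromosome 13, 34074274 to 34078007), a beta isotype abundant in brain, stood at 2215 TPM in replicate 1 and 2679 TPM in replicate 2, or 38.2% and 39.3% of the beta level. Its neighbour Tubb2b (ENSMUSG00000045136.5, chromosome 13, 34126748 to 34130466), whose human counterpart is mutated in polymicrogyria, stood at 755 TPM and 986 TPM. The Tubb2a level was 2.93 and 2.72 times that of Tubb2b in replicates 1 and 2, and the pair held 51.2% and 53.8% of the beta level. Their coding ends differ by the 3 bases given above, none of which changes the encoded amino acid.

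Tubb3 (ENSMUSG00000062380.3, chromosome 8, 123411424 to 123422015), the beta isotype used as a marker of neurons, stood at 1059.7 TPM in replicate 1 and 1275 TPM in replicate 2. Its share of the summed tubulin level was 6.31% and 6.30% (mean 6.30 ± 0.00600%). Tubb5 (ENSMUSG00000001525.10, chromosome 17, 35833921 to 35838306), made in most cells including neural progenitors, stood at 1100.2 TPM and 1205 TPM, or 6.55% and 5.95% of the summed level. Tubb4b (ENSMUSG00000036752.4, chromosome 2, 25222160 to 25224702), a widely made isotype that is also built into cilia, stood at 413 TPM and 378.5 TPM. Tubb4a (ENSMUSG00000062591.5, chromosome 17, 57080066 to 57087782), whose human counterpart is mutated in a hypomyelinating disease, stood at 254 TPM and 287 TPM. Per length, the ranges of Tubb3 and the widely made Tubb5 overlapped, whereas from expected counts, not divided by length, the Tubb5 share was 9.61% and the Tubb3 share 6.81%. The Tubb3 level was 2.57 and 3.37 times that of Tubb4b.

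**Figure D2:**
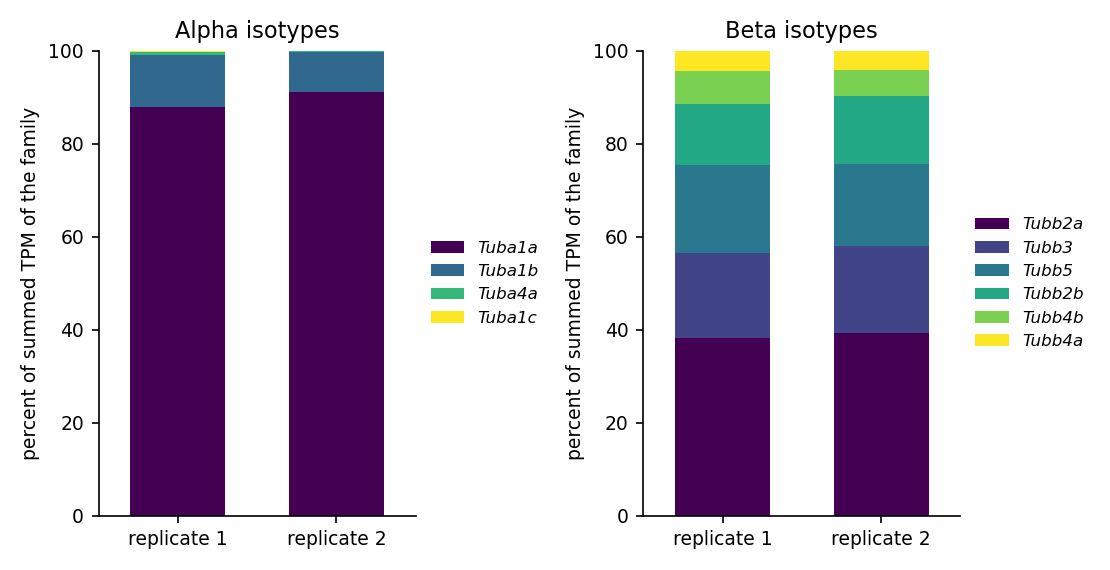
Stacked bars of each isotype as percent of the summed TPM of its family, alpha on the left and beta on the right, 1 bar per library. Tuba1a fills 87.9% and 91.1% of the alpha bars, Tubb2a 38.2% and 39.3% of the beta bars, and Tuba1c, at 0.363% and 0.0727%, is too thin to be seen.

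By mean level the order was Tuba1a (10958 ± 1809 TPM), Tubb2a (2447 ± 328), Tuba1b (1188 ± 52.7), Tubb3 (1167 ± 152), Tubb5 (1153 ± 74.1), Tubb2b (870.5 ± 164), Tubb4b (396 ± 24.3), Tubb4a (270.4 ± 23.3), Tuba4a (51.6 ± 21.2) and Tuba1c (24.9 ± 21.4). Tuba1b, Tubb3 and Tubb5 did not differ beyond their spread, because their ranges overlapped and their order turned between the libraries. Tuba4a and Tuba1c also had overlapping ranges, though Tuba4a was higher in 2 of 2 libraries. The ranges of the other neighbouring pairs did not overlap. The step between Tuba1a and Tubb2a was 4.47 ± 0.141-fold, and that between Tubb4a and Tuba4a was 5.83 ± 2.85-fold.

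Over 2 libraries of 1 group, likeness to another gene can mean little more than a like level. By Euclidean distance of log2(TPM + 1) over the 2 libraries, the protein-coding genes nearest to Tubb3 were Ndufa4 (0.013), Selenow (0.0844) and Atpif1 (0.0936). The same 3 genes were nearest to Tubb5, with Atpif1 first at 0.0525. For Tuba1a the nearest were mt-Atp6 (0.554), mt-Atp8 (1.05) and Hba-a2 (1.20), each lower than Tuba1a.

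Most members drew their level from 1 transcript. The tables hold 24 transcripts of the 10 genes, and 5 members have 1 transcript each. The leading transcript held 99.0 ± 0.0495% of Tuba1a, 98.8 ± 0.318% of Tuba1b, 99.2 ± 0.113% of Tubb4b and 98.1 ± 0.226% of Tubb5. Tuba4a was the exception, with 4 of its 8 transcripts at 5% or more of the gene in either library. Tuba4a-201 held 41.9% in replicate 1 and 61.1% in replicate 2, Tuba4a-206 held 34.9% and 16.7%, and the retained intron Tuba4a-205 held 6.21% and 3.55%. The annotation marks the coding regions of Tuba4a-201 and Tuba4a-206 as incomplete, while Tuba4a-202, the transcript printed above, held 12.7% and 12.1%.

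Tuba1a, Tuba1b and Tuba1c resemble each other closely, as do Tubb2a and Tubb2b, so that part of their reads could come from more than 1 gene. Tuba1b, Tuba1a and Tuba1c lie in this order on chromosome 15, with gaps of 15271 and 76187 bases, and their coding regions are 97.6 to 98.4% identical. Over their transcripts, these pairs share unbroken runs of 281 to 468 bases. Tuba4a is 85.3 to 85.6% identical to them, with no shared run above 29 bases. Tubb2a and Tubb2b lie 48740 bases apart on chromosome 13, are 96.5% identical in coding sequence and share a run of 551 bases. The other 14 beta pairs are 82.4 to 84.8% identical, with runs of 26 to 53 bases.

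Each transcript was cut into all its overlapping words of 100 bases, since the effective length in the tables is 99 bases shorter than the length. The share of these words found in no other gene of GENCODE M21, on either strand, was 100% for Tubb3, Tubb4a and Tubb5. It was 72.3% for Tubb2b, 69.4% for Tubb4b, 63.1% for Tubb2a, 53.3% for Tuba4a, 46.6% for Tuba1c, 34.2% for Tuba1a and 27.0% for Tuba1b. The deposited counts used release M4, which lacks some M21 genes that share words with Tuba1a and Tuba1b, such as Gm49450. The authors' tables give a posterior SD for each count, which measures how firmly reads were assigned. It was 0 for Tubb3, Tubb4a and Tubb5, at most 0.354% of the count for Tuba1a, Tuba1b, Tubb2a, Tubb2b and Tubb4b, and 2.60% and 4.88% for Tuba1c in replicates 1 and 2. By this measure the reads of Tuba1c were the least firmly assigned of the 10. Its low level stands beside copies whose level is far higher, with Tuba1b at 30.6 and 118 times its level.

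For Tuba4a the overlapping gene is on the other strand. Stk16, a kinase gene, shares 1379 exonic bases with Tuba4a, or 37.3% of the exonic bases of Tuba4a, and stood at 130 TPM in replicate 1 and 128 TPM in replicate 2. Whether reads were counted by strand is not stated in the labels or files, so reads of the pair may not be told apart, and the Tuba4a level is uncertain. The posterior SD of Tuba4a was 0.436% and 0.858% of its count. Tubb4b shares 121 exonic bases, 5.80% of its own, with Fam166a on the opposite strand, which stood at 0 and 0.04 TPM.

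**Figure D3:**
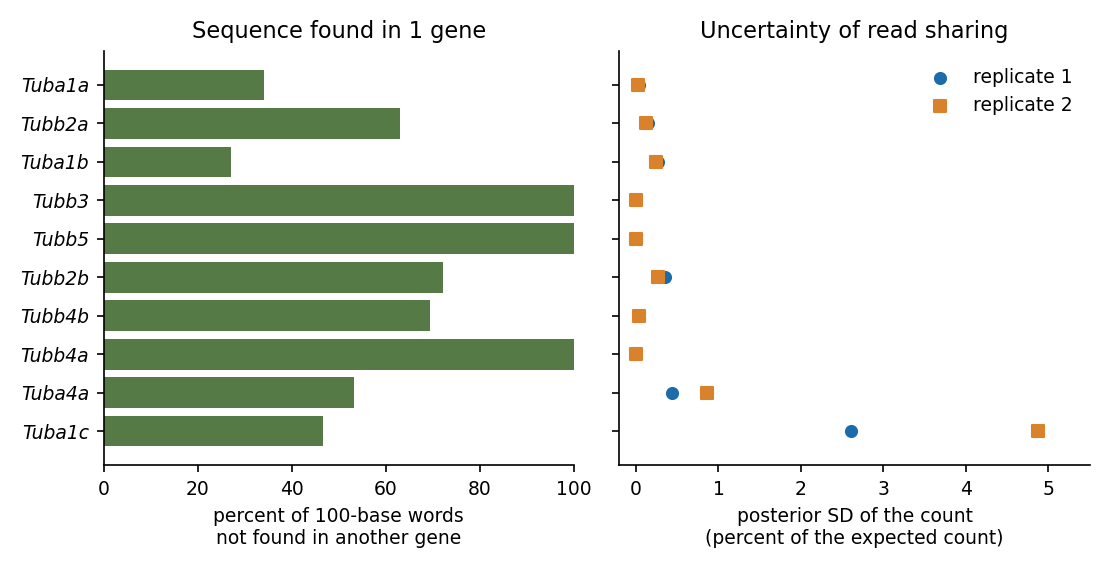
Left, the percent of the 100-base words of each isotype transcript that occur in no other gene of GENCODE M21. Right, the posterior SD of the count as percent of the expected count, per library. Tubb3, Tubb4a and Tubb5 are at 100% and 0, while Tuba1c has the widest posterior SD, 2.60% and 4.88%.

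Most isotypes stayed within 1.5-fold between the pools, and the 2 lowest did not. Past a 1.5-fold difference in TPM + 1 were 2 of 10 members, both higher in replicate 1, against a background of 12.7% of 16524 genes with a mean of at least 1 TPM in either direction and 10.8% higher in replicate 1. Past it and higher in replicate 2 were 0 of 10 members, against 1.85% of those genes. Among genes at least as abundant as Tuba1c, a background chosen after the values were seen, 3.98% passed. The share of members is thus near the first background and rests on 2 genes. The TPM of Tuba1c in replicate 1 was 4.09 times that in replicate 2 (log2 1.93 on the TPM + 1 scale), and for Tuba4a it was 1.82 times (log2 0.85). At a 2-fold limit Tuba1c alone passed.

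The other 8 members ranged from -0.39 for Tubb2b to 0.12 for Tubb4b on the log2 scale, replicate 1 over replicate 2. Tubb2b, Tuba1a, Tubb2a and Tubb3 were lower in replicate 1, at -0.39, -0.34, -0.27 and -0.27, as were Tubb4a at -0.18 and Tubb5 at -0.13. Tuba1b (0.09) and Tubb4b (0.12) were slightly higher there. The signs of all 10 were the same with TMM-scaled counts and with DESeq2 size factors. The median over the 10 was -0.15, and over all 16524 genes it was 0.02.

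Marker genes of other tissues also differed between these pools. Replicate 1 held 189 TPM summed over 6 thymocyte genes and replicate 2 held 0.44 TPM, where Cd3g was at 0. Dntt of this list was low in both libraries, at 0.3 and 0.17 TPM. For 4 thymic epithelium genes the sums were 255 and 10.8 TPM, with Foxn1 at 0 in replicate 2. Ccl25 alone held 10.7 TPM of that replicate 2 sum, with Prss16 at 0.07 TPM and Psmb11 at 0.03 TPM. They were 629 and 8.09 TPM for 5 epithelial genes, and 234 and 24.0 TPM for 4 smooth muscle genes. All 6 genes of dividing cells were past 1.5-fold and higher in replicate 1, with sums of 297 and 114 TPM and with Cdk1 at 116 and 44.7 TPM. None of these marker genes was at 0 in replicate 1. The 9 neuronal markers were all present, none past 1.5-fold, with a median log2 ratio of -0.21. Past 1.5-fold were also 0 of 5 genes of neural progenitors, 0 of 5 of glia and 0 of 4 of red cells, counts too small to be read against the 12.7% of all genes. Of the multiciliated cell genes, Foxj1 stood at 9.32 and 9.92 TPM, Rsph1 at 3.13 and 2.87 TPM and Dnah5 at 0.14 and 0.11 TPM. The part of these tissues and cells in the Tuba1c, Tuba4a and Tuba1a differences was not tested. In bulk RNA, fewer cells of a type and less RNA per cell cannot be told apart. All 6 genes of the spinal cord list were detected, against 63.4% of protein-coding genes. The highest of them were Slc17a6 at 82.4 ± 6.59 TPM and Gad1 at 73.6 ± 7.67 TPM. Lbx1 stood at 11.4 ± 3.44 TPM, and Slc32a1 was lowest at 8.54 ± 0.806 TPM. Detection of these genes does not tell how much RNA of other tissues each pool held.

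**Figure D4:**
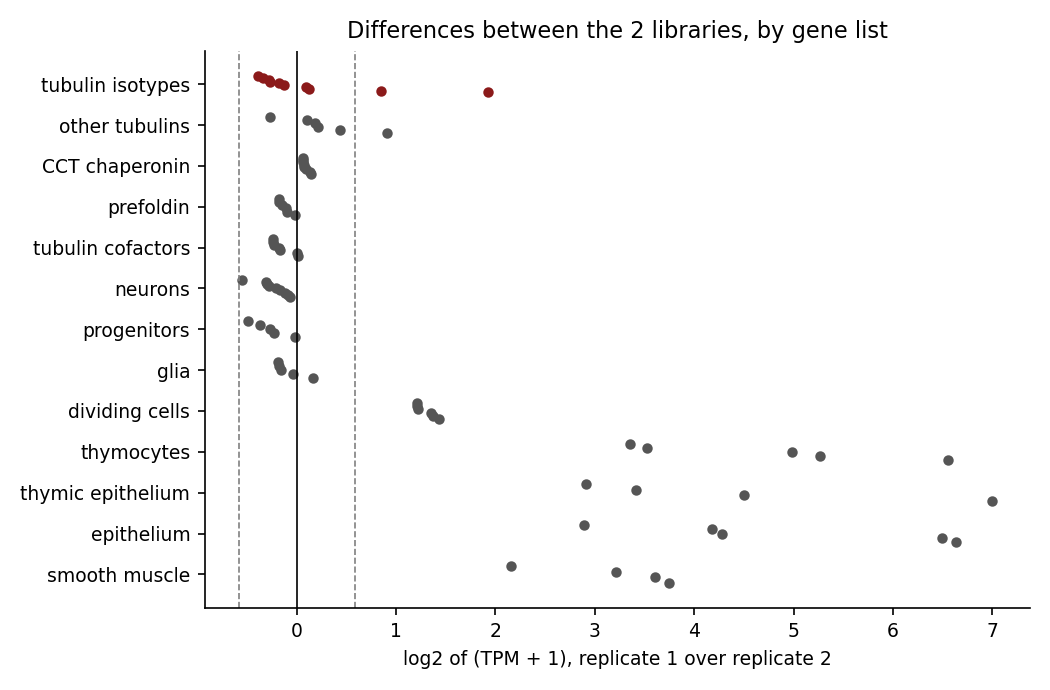
Each point is a gene with a mean of at least 1 TPM, placed by the log2 ratio of TPM + 1, replicate 1 over replicate 2, in rows by gene list; dashed lines mark 1.5-fold. Tuba1c (1.93) and Tuba4a (0.85) lie to the right of the line among the isotypes, and the rows of dividing cells, thymus, epithelium and smooth muscle lie wholly to the right.

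The remaining alpha and beta genes added little. Outside the 10, the alpha and beta genes of the annotation held 0.323% of the full alpha and beta level in replicate 1 and 0.142% in replicate 2. Tubb6, a beta isotype of many non-neuronal cells, accounted for most of it, at 51.7 TPM in replicate 1 and 27.1 TPM in replicate 2, a difference past 1.5-fold like those of Tuba1c and Tuba4a. The Tubb3 level was 20.5 and 47.1 times that of Tubb6. Tuba8 stood at 2.08 and 1.28 TPM, and Tubb1, the beta tubulin of platelets, at 0.24 and 0.4 TPM. Tubal3 had 25 counts in replicate 1 and 0 in replicate 2. Tuba3a, of testis, had 0 counts in both libraries, which allows up to 0.0959 TPM in replicate 1 and 0.0803 TPM in replicate 2 (3 counts, counting error only), and Tuba3b had 0 and 1 counts.

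Tubulins that do not form the microtubule wall were lower than the main isotypes. Gamma tubulin nucleates microtubules, and its genes Tubg1 and Tubg2 stood at 58.3 ± 3.15 and 45.4 ± 6.20 TPM. The delta and epsilon tubulins of centrioles, Tubd1 and Tube1, stood at 5.89 ± 0.622 and 5.03 ± 0.636 TPM. None of these 4 genes was past 1.5-fold between the libraries.

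Genes that fold and modify tubulin or act in the decay of its mRNA were mostly detected. Of 52 genes in 8 lists, 47 reached 1 TPM in both libraries, against 63.4% of protein-coding genes. Of those 47, 0 were past 1.5-fold in either direction, against 12.7% of all genes and 3.98% of genes at least as abundant as Tuba1c, with log2 ratios of -0.30 to 0.45 and a median of -0.11.

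New tubulin chains pass from prefoldin to the ring-shaped CCT chaperonin and then to cofactors that join alpha to beta. All 6 prefoldin genes were detected, led by Pfdn5 at 373 ± 33.1 TPM, Vbp1 at 263 ± 12.2 TPM and Pfdn6 at 140.2 ± 1.53 TPM, with Pfdn1 lowest at 86.2 ± 4.48 TPM. All 8 CCT genes lay between 186 TPM (Cct2) and 392 TPM (Cct5), and Cct6a and Cct3 stood at 376 ± 11.4 and 369.6 ± 25.2 TPM. The 8 CCT ratios were all slightly above 0, at 0.06 to 0.14 in log2. Among 7 cofactor genes, Tbcb (365 ± 42.0 TPM) and Tbca (239.9 ± 28.7 TPM), which bind free alpha and beta chains, were highest, followed by Arl2 at 110.5 ± 8.96 TPM, and Tbcel was lowest at 3.08 ± 0.0212 TPM.

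Enzymes acting on the final tyrosine were present on both sides of the cycle. Ttl, which adds the tyrosine back, stood at 30.5 TPM in replicate 1 and 37.2 TPM in replicate 2. The enzymes that remove it, Vash2 and Vash1, stood at 65.6 ± 7.38 and 22.1 ± 1.40 TPM, and their partner Svbp at 181 ± 25.1 TPM. Genes whose coding region ends in a codon for this tyrosine held the 99.4% and 99.7% of the alpha RNA level given above.

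Enzymes of the glutamate side chains and of acetylation followed. Of 15 genes for glutamylation and glycylation, 12 were detected, led by Nicn1 (100.3 ± 10.3 TPM), Tpgs1 (93.7 ± 3.99 TPM) and Ttll1 (86.3 ± 8.76 TPM), the last being the catalytic subunit of the brain polyglutamylase and Tpgs1 another subunit. Ttll8, a glycylase of cilia, was lowest at 0.12 ± 0.0141 TPM. Of 6 deglutamylase genes, 4 were detected, with Agtpbp1, whose loss causes Purkinje cell degeneration in mice, at 54.6 ± 3.73 TPM, Agbl5 at 16.5 ± 1.24 TPM, Agbl3 at 10.3 ± 0.580 TPM and Agbl2 lowest at 0.125 ± 0.0212 TPM. Atat1, the alpha tubulin acetyltransferase, stood at 236 ± 34.3 TPM, and the deacetylases Sirt2 and Hdac6 at 88.4 ± 4.10 and 48.7 ± 2.15 TPM. In the decay pathway that reads the first codons, Ttc5 stood at 83.2 ± 1.73 TPM, Scaper at 25.8 ± 1.36 TPM and Cnot11 at 13.2 ± 0.841 TPM.

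**Figure D5:**
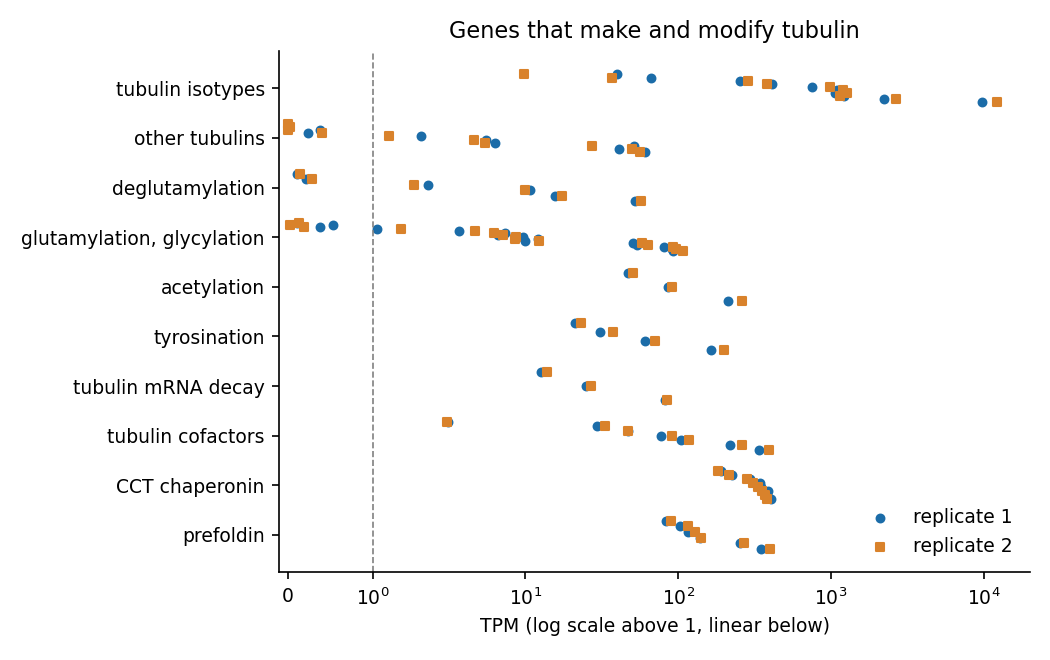
TPM of each gene, on a log axis above 1 TPM and linear below, in rows by function, with replicate 1 as circles and replicate 2 as squares; the dashed line marks 1 TPM. The isotypes extend from Tuba1c at 9.77 TPM in replicate 2 to Tuba1a at 12237 TPM, while the CCT genes sit in a narrow band of 186 to 392 TPM by mean.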

How the data were processed

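The authors deposited gene and transcript tables per library on mm10 with GENCODE release M4, per the text notes deposited beside the tables. No label or file names the quantifier or says whether strand was used. Expected counts as deposited share reads among the transcripts they fit, and TPM as deposited by the authors is per effective length over all entries, spike-ins included. The percent of a gene in each transcript and the posterior SD, a score, come from the deposited tables. FPKM, also deposited by the authors, was not used. Library protocols, per the labels, used 10 ng of RNA above 200 nucleotides.

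Symbols, coordinates and sequences came from GENCODE M21 on GRCm38, matched without version (42462 of 43346 identifiers). Expected counts were rounded for TMM scaling (edgeR 4.0.16) and DESeq2 1.42.0 size factors in R 4.3.3, with the rest in Python 3.11.15 and Biopython 1.88. Coding regions were aligned globally. A gene was detected at 1 TPM in both libraries. Fold limits of 1.5 used TPM + 1 and a mean of at least 1 TPM. The rule for named genes took all members, their transcripts at 5% or more, other tubulins, the 3 nearest genes to Tuba1a, Tubb3 and Tubb5, and the 3 highest and the lowest of each list. It was followed for the tubulin lists. The marker lists are given by counts and sums, and single marker genes were picked with their values in view. The fold rule was tested on simulated data with counting error only and planted changes larger than the limit. That test does not cover differences between pools. Members and lists were chosen with earlier results of these data known. The coding ends of the other alpha members are not reported here.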

Additional observations from a re-analysis of the deposited data

How the results depend on the processing

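From expected counts, which are not divided by length, the Tuba1a share was 55.6% and the alpha share 62.5%. With posterior mean TPM, all alpha and beta genes in the sum, or protein-coding transcripts only, these shares stayed within 1 SD of the reported values. With only 2 libraries, leaving out 1 returns the values of the other and is no separate check. The Tuba1a share was then 57.6 to 60.4% and the alpha share 65.5 to 66.4%. All 10 members were detected at 0.5, 1 and 5 TPM, from CPM and from posterior mean TPM. The count of members past the fold limit was 2 at 1.5-fold under each scaling, filter and pseudocount tried, and 1 at 2-fold, where Tuba4a (log2 0.85) no longer passed. From counts the Tubb5 share was 9.61%, against 6.25 ± 0.420% from TPM, a move beyond its SD. No log2 ratio of a member between the libraries changed its sign under the settings tried. No paired analysis was possible because the 2 libraries form 1 group. Depth limits the genes near 0, such as Tuba3a and Tubal3.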

Other observations

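The annotation holds 12 processed pseudogenes that share 100-base words with the isotypes, of which 9 are in the tables, at 0 to 25.2 TPM. Their summed level was 41.4 TPM in replicate 1 and 58.7 TPM in replicate 2, or 0.246% and 0.290% of the summed level of the 10 isotypes. The highest was Gm14150, which shares 523 words with Tuba1b, at 17.4 and 25.2 TPM, followed by Gm6682 at 10.4 and 16.2 TPM. Both were higher in replicate 2, as was Tuba1a and unlike Tuba1b. Yet both share more words with Tuba1b than with Tuba1a. Gm14150 shares 174 words with Tuba1a, and Gm6682 shares 327 with Tuba1b and 228 with Tuba1a. The source of their reads was not tested. Tubb4b-ps1 shares 411 words with Tubb4b and stood at 1.17 and 1.19 TPM.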
